A study of Cavia porcellus with 10 samples.

Results

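The genes described here code for matrix metallopeptidases (MMP), for ADAM metallopeptidases, for their relatives that carry a thrombospondin motif (ADAMTS), and for the tissue inhibitors of metallopeptidases (TIMP), in the cervix of the guinea pig. They were taken as all genes of the deposited table named by one of these 4 family names and a number alone, which gave 52 of 25028 genes, namely 14 MMP, 18 ADAMTS, 17 ADAM and 3 TIMP genes. The table lists TIMP2 as TIMP2_CAVPO, so that it stood outside this choice, and its values are given beside those of the other inhibitors.

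The stroma of the cervix is held together by fibrillar collagen, and its softening and opening before birth involve a loosening of that collagen network and a changed content of proteoglycans. MMPs are zinc enzymes that are made as inactive pro-enzymes and cut collagens, gelatin and other proteins of the matrix. Among the ADAMTS enzymes, some cut large proteoglycans such as versican and aggrecan and others trim the ends of new procollagen chains, while ADAMs sit in the membrane and release growth factors, cytokines and receptors from cell surfaces. TIMPs bind the active site of these enzymes, and TIMP3 has the widest range, reaching several ADAM and ADAMTS enzymes. The data are mRNA levels, and neither enzyme activity nor protein was measured.

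The tissue was the vaginal portion of the cervix of untreated Hartley guinea pigs. It came from 3 non-pregnant females taken at the onset of estrus (NP), 3 females at mid-pregnancy (MT, 43.6 ± 0.5 days, SD) and 4 in late pregnancy that were not in labor (LT, 65.2 ± 1.2 days, SD), each animal being 1 biological replicate. Gestational age was estimated after death from the size of the fetuses. Each animal had 18730665 to 27881572 reads counted on genes, and levels are given in transcripts per 1000000 (TPM), a unit per transcript length that can be compared between genes. At 3 TPM, the level a gene had to reach as the mean of at least 1 stage in order to be tested, the median number of reads behind a gene was 55 to 104.5 in the different libraries. The stromal collagen gene COL1A1 was abundant in every animal, with 3495 to 7443 TPM. Smooth muscle mRNA was abundant as well and varied more, with 1249 to 16313 TPM of ACTG2. In bulk tissue, fewer cells of a type and less mRNA per cell cannot be told apart.

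NP replicate 1 stood apart from the other NP animals in several markers. It had 118 TPM of the squamous gene IVL (30.9 and 10.6 TPM in the others), 9.86 TPM of the mucin gene MUC5B (102 and 115 TPM) and 9985 TPM of the smooth muscle gene ACTG2 (2408 and 1249 TPM). Another mucin gene, MUC4, was higher in it, at 107 TPM (66.9 and 55.6 TPM), and the epithelial gene EPCAM was at 269 TPM (303 and 312 TPM). Without this animal, 15 members passed the test from NP to MT, 11 from MT to LT and 23 from NP to LT, in place of 14, 9 and 22, while the share of all tested genes that passed was 33.1%, 42.1% and 61.3% in place of 18.5%, 29.4% and 53.1%.

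Of the 52 genes, 37 reached 3 TPM in at least 1 stage and were tested. From NP to MT, 5 of them rose and 9 fell (limma, adjusted P under 0.05), where 6.27% of all 12645 tested genes rose and 12.2% fell. From MT to LT 4 rose and 5 fell, against 6.73% and 22.7% of all genes. Between NP and LT 6 rose and 16 fell, against 11.2% and 41.9%. The 3 comparisons share animals. Without MT replicate 3 the number of members called from NP to MT was 8, and without MT replicate 2 it was 9, and the share of all tested genes fell with it from 18.5% to 8.68% and 13.1%. In the order of these comparisons, the median log2 fold change of the members was -0.29, -0.07 and -0.33, and that of all tested genes -0.14, -0.16 and -0.28. Changes of single genes are given in parentheses as the log2 fold change of TPM with a pseudocount of 1, a scale on which changes of weakly expressed genes come out too small, with its standard error (SE) and the adjusted P of limma. Since TPM values of an animal add up to a fixed total, these medians move with the scaling, and after median-ratio scaling those of all genes were -0.0030, 0.015 and 0.028.

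The split of calls by direction moved with the scaling as well. Of all genes called, 33.9% were higher in MT than in NP, 22.9% higher in LT than in MT and 21.1% higher in LT than in NP, and after median-ratio scaling these shares were 60.4%, 49.7% and 53.0%. For the members this scaling gave 5 higher and 8 lower from NP to MT and 4 higher and 4 lower from MT to LT, and 9 higher and 11 lower from NP to LT. With edgeR (TMM or RLE) on the read counts the split was 4 and 9, 5 and 4, and 8 and 11 in these comparisons, and with DESeq2 it was 4 and 9, 9 and 6, and 10 and 13. Of all genes called, 55.7%, 46.3% and 47.9% were then higher with edgeR (TMM) and 53.3%, 48.0% and 48.8% with DESeq2. The decreases from NP to LT that were lost with median-ratio scaling were those of ADAM10, ADAM17, ADAMTS3, ADAMTS9 and MMP14, and ADAM8, ADAM15 and ADAMTS1 came in as higher in LT.

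**Figure D1:**
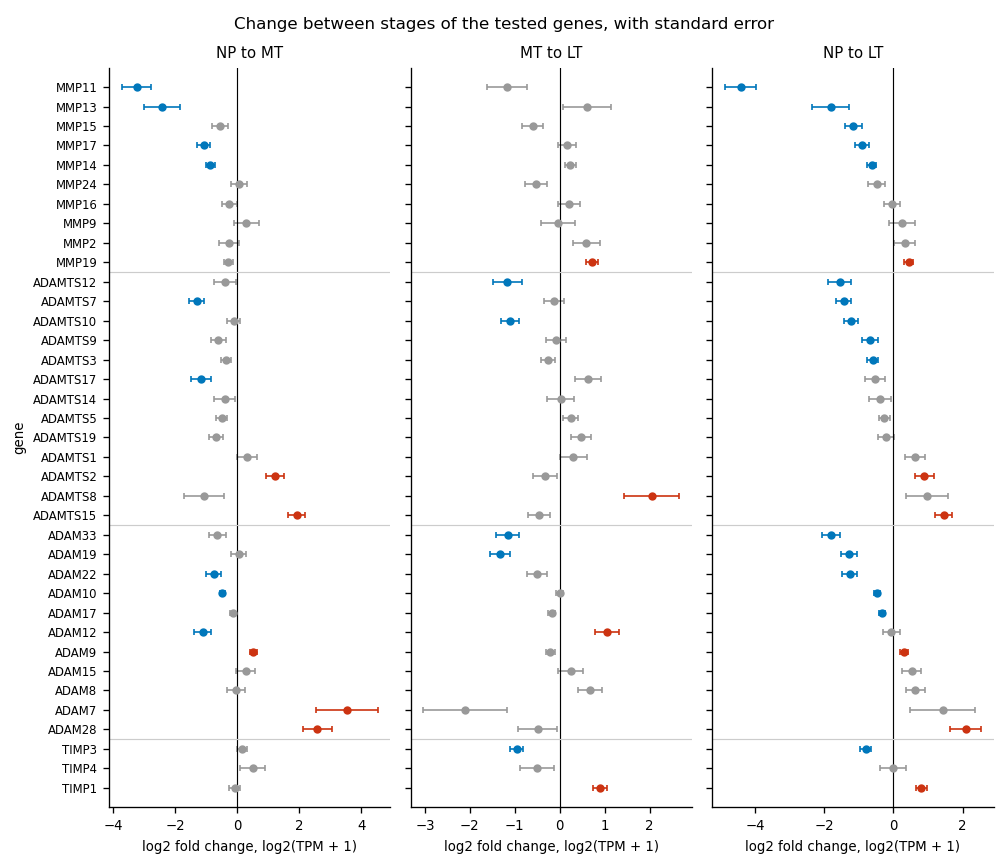
Log2 fold changes on the log2(TPM + 1) scale for the 37 tested genes in the 3 comparisons, with bars of 1 standard error; each family is sorted by its change from NP to LT, red marks genes that rose and blue genes that fell at an adjusted P under 0.05, and grey those that did not pass. MMP11 lies farthest to the left in the panels for NP to MT and NP to LT, at -3.24 and -4.42, and ADAM7 farthest to the right in the panel for NP to MT, at 3.53.

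Among the MMPs, 4 of 10 tested genes fell from NP to MT and none rose, 1 rose from MT to LT, and 5 fell and 1 rose from NP to LT. Of all tested genes, 12.2% fell and 6.27% rose from NP to MT, 6.73% rose from MT to LT, and 41.9% fell and 11.2% rose from NP to LT. The most abundant was the gelatinase MMP2 (ENSCPOG00000020846), which cuts gelatin and basement membrane collagen. It made up 59.8%, 72.3% and 77.9% of the summed MMP level on average in NP, MT and LT. MMP2 stood at 485, 826 and 1059.7 TPM in the NP animals, 727, 595 and 570.3 TPM in MT and 1364, 829, 1116 and 629.9 TPM in LT. By its stage mean it held rank 171 of all genes in NP, rank 212 in MT and rank 159 in LT, and all 3 groups overlapped. The change from MT to LT did not pass (0.59, SE 0.30, adjusted P = 0.158). With DESeq2 on the read counts it did, with a log2 fold change of 0.81 and an adjusted P of 0.0147, and MMP2 was then also higher in LT than in NP (0.63, adjusted P = 0.045). MMP9, the other gelatinase, had stage means of 5.98 to 8.99 TPM, with 17.0 TPM in MT replicate 3, and passed in no comparison.

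MMP14 (ENSCPOG00000024551) codes for a membrane-bound collagenase that also activates the pro-form of MMP2. Its NP animals had 369.7, 283 and 364 TPM, its MT animals 185, 186 and 184 TPM and its LT animals 239, 195, 249 and 193 TPM. The MT animals had an SD of 0.614 TPM and lay below every animal of the other stages, and every LT animal lay below every NP animal. MMP14 fell from NP to MT (-0.86, SE 0.13, adjusted P = 0.0028) and was lower in LT than in NP (-0.62, SE 0.12, adjusted P = 0.00248). The latter call was lost with median-ratio scaling, with edgeR and with DESeq2, over an adjusted P of 0.00245 to 0.127. Its MT to LT change was 0.23 (adjusted P = 0.175), and with DESeq2 it passed as a rise of 0.42 (adjusted P = 0.0326).

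MMP11 (ENSCPOG00000003507), a relative of the stromelysins that furin can activate inside the cell, showed the widest change of the 37 genes. It was at 75.0, 72.5 and 181 TPM in NP, at 4.31, 20.7 and 9.45 in MT and at 3.29, 4.76, 3.03 and 3.93 in LT. NP replicate 3 was the highest of all, MT replicate 2 the highest of its group, and no NP animal overlapped a pregnant one. The gene fell from NP to MT (-3.24, SE 0.48, adjusted P = 0.00235) and stood at 0.0468 times its NP level in LT on the fitted scale (-4.42, SE 0.45, adjusted P = 0.000126). Between MT and LT the change of -1.18 did not pass (adjusted P = 0.0722), and it passed with DESeq2 and without MT replicate 1.

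MMP13 (ENSCPOG00000000221) was the only interstitial collagenase gene that could be tested. Its level was low, with 15.8, 4.56 and 2.77 TPM in NP, 0.746, 0.0738 and 0.217 in MT and 2.34, 1.76, 0.663 and 0.0512 in LT. The highest value belonged to NP replicate 1, and every NP animal was above every pregnant one. MMP13 fell from NP to MT (-2.42, SE 0.58, adjusted P = 0.018) and was lower in LT than in NP (-1.82, SE 0.54, adjusted P = 0.0175). The first of these calls was lost without MT replicate 2 and without MT replicate 3, with an adjusted P of up to 0.0638. Without NP replicate 1 the changes were -1.797 and -1.19. MMP13 and the squamous markers IVL and SPRR3 were highest in NP replicate 1. The sum of the 5 squamous markers in the table was at 1013 to 3100 TPM in NP, 166 to 1228 in MT and 1488 to 2931 in LT, and most of it was KRT14. IVL and SPRR3 were lower in MT than in NP. They were also lower in LT than in NP (-4.57, adjusted P = 0.000378, and -3.37, adjusted P = 0.00186). The part of squamous cells in the change of MMP13 was not tested. In the same step from NP to MT the stromal marker LUM (-0.67, adjusted P = 0.0433), the endothelial marker CDH5 (-0.67, adjusted P = 0.0336) and the macrophage marker AIF1 (-1.002, adjusted P = 0.0329) fell. The other tested stromal, endothelial and macrophage markers did not pass in this step, with changes from -0.84 (CD68) to 0.41 (PDGFRA). The part of these cell types in the decreases of MMP11, MMP13, MMP14 and MMP17 was not tested. The collagenase genes MMP1 and MMP8 had 2 and 117 reads in all 10 animals together.

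Of the other membrane-type MMPs, MMP15 (ENSCPOG00000014329) had 13.3, 18.04 and 20.6 TPM in NP, 10.6, 14.2 and 9.59 in MT and 10.8, 7.37, 6.41 and 4.88 in LT. Its NP and LT animals did not overlap (-1.15, SE 0.24, adjusted P = 0.00298), while MT overlapped both. MMP17 (ENSCPOG00000019867), which is held in the membrane by a lipid anchor, had 2.48, 3.94 and 3.54 TPM in NP, 1.04, 1.06 and 0.977 in MT and 1.49, 1.39, 1.27 and 0.921 in LT. It fell from NP to MT (-1.08, SE 0.22, adjusted P = 0.00914) and was lower in LT than in NP (-0.92, SE 0.20, adjusted P = 0.00404). The first call was lost when only the animals of NP and MT were fitted (adjusted P = 0.0545). MMP16 and MMP24, at stage means of 2.51 to 7.32 TPM, passed in no comparison.

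MMP19 (ENSCPOG00000009116), a protease of basement membrane proteins, was the MMP that rose from MT to LT in limma. It had 12.5, 11.3 and 11.4 TPM in NP, 11.2, 7.58 and 9.90 in MT and 17.5, 15.5, 17.5 and 14.7 in LT, and every LT animal was above every other animal. The rise from MT to LT passed under all alternatives tried (0.73, SE 0.13, adjusted P = 0.00487). The difference between NP and LT (0.44, SE 0.13, adjusted P = 0.0184) was lost when NP replicate 2, NP replicate 3 or LT replicate 3 was left out, with an adjusted P of up to 0.0595.

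**Figure D2:**
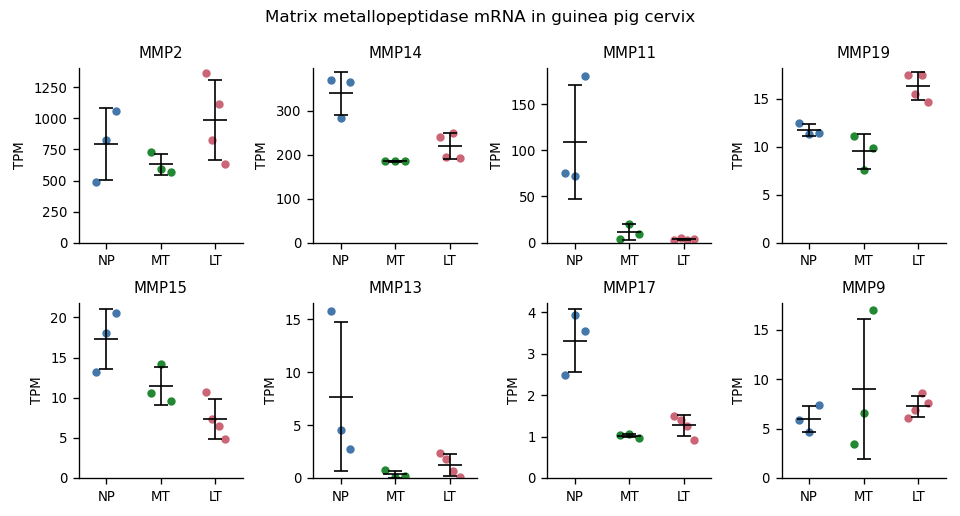
TPM of 8 MMP genes in each animal of NP, MT and LT, each panel with its own linear axis from 0; dots are animals and the black bars show the mean ± SD. MMP11, MMP13 and MMP17 are highest in NP, MMP19 is highest in the 4 LT animals, at 14.7 to 17.5 TPM, and the 3 groups of MMP2 overlap.

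The ADAMTS genes were tested for 13 of 18 members, and their summed level was 419 ± 87.1 TPM in NP, 514 ± 68.9 in MT and 472 ± 102 in LT (mean ± SD over 3, 3 and 4 animals). ADAMTS1 and ADAMTS2 made up 43.9%, 58.8% and 64.9% of these sums. ADAMTS1 (ENSCPOG00000006447), which cuts versican and aggrecan, had 137, 115 and 85.6 TPM in NP, 161, 103 and 161 in MT and 266, 204, 146 and 108 in LT. The LT animals overlapped both other groups, and no comparison passed. After median-ratio scaling the difference between NP and LT passed (0.95, adjusted P = 0.0287, against 0.63 and 0.101 on TPM as deposited). It also passed with edgeR, DESeq2 and the replicate number as a block and without LT replicate 4, with an adjusted P of 0.00653 to 0.0319.

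ADAMTS15 (ENSCPOG00000007649) is also a versican-cutting enzyme. It had 9.92, 16.3 and 14.3 TPM in NP, 68.5, 39.9 and 53.1 in MT and 50.6, 46.6, 28.8 and 30.4 in LT. All pregnant animals were above all NP animals. ADAMTS15 rose 3.76-fold from NP to MT (1.91, SE 0.27, adjusted P = 0.00191) and was 2.74-fold higher in LT than in NP (1.45, SE 0.25, adjusted P = 0.00127), and both calls held under every alternative. Its MT to LT change was -0.46 (adjusted P = 0.191).

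ADAMTS8 (ENSCPOG00000003918), a proteoglycanase of low level, had 14.4, 3.66 and 2.61 TPM in NP, 1.40, 1.94 and 2.97 in MT and 3.81, 9.61, 16.7 and 26.4 in LT. The LT animals were widely spread but all lay above MT, and NP replicate 1 was the highest NP animal. The rise from MT to LT (2.04, SE 0.62, adjusted P = 0.0324) was lost under 9 of 20 alternatives, among them the omission of any 1 MT animal or of LT replicate 2, 3 or 4, with an adjusted P of 0.000304 to 0.129. ADAMTS9 (ENSCPOG00000004877), another versican-cutting enzyme, had 90.2, 51.0 and 54.1 TPM in NP, 45.4, 40.8 and 37.2 in MT and 54.1, 38.8, 31.0 and 35.2 in LT. Its decrease from NP to LT (-0.68, SE 0.22, adjusted P = 0.0266) came with overlapping groups and was lost under 8 of 20 alternatives, among them the omission of NP replicate 1 or of LT replicate 2, 3 or 4, with an adjusted P of up to 0.26. ADAMTS5, with stage means of 8.72 to 12.9 TPM, passed in no comparison.

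For the enzymes that remove the N-terminal propeptide of fibrillar procollagen, the sum was 85.1 ± 37.0 TPM in NP, 168 ± 4.88 in MT and 135 ± 19.7 in LT. Nearly all of it was ADAMTS2 (ENSCPOG00000001168), with 118, 60.9 and 44.0 TPM in NP, 166, 159 and 156 in MT and 146, 124, 142 and 103 in LT. The MT animals agreed closely and lay above every NP and LT animal, and NP replicate 1 overlapped the LT group. ADAMTS2 rose from NP to MT (1.22, SE 0.29, adjusted P = 0.018) and was higher in LT than in NP (0.89, SE 0.27, adjusted P = 0.0195). Neither call held without NP replicate 2, nor the first without MT replicate 3, nor the second without NP replicate 3, and the first was also lost with only NP and MT fitted. ADAMTS3, at a far lower level, fell from NP to LT by 0.60 on the log2 scale (adjusted P = 0.00868), a call lost with median-ratio scaling and with edgeR, and ADAMTS14 passed in no comparison.

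In the remaining ADAMTS genes every change that passed in limma was a decrease, the direction of most calls over all genes on this scale, and their sum was 122 ± 3.41 TPM in NP, 98.4 ± 28.9 in MT and 52.3 ± 9.36 in LT. ADAMTS10 (ENSCPOG00000024367), which binds the fibrillin microfibrils of elastic tissue, had 71.7, 81.1 and 81.9 TPM in NP, 97.2, 70.6 and 54.3 in MT and 42.8, 32.3, 32.6 and 26.3 in LT. NP and MT overlapped and all LT animals were lower. ADAMTS10 fell from MT to LT (-1.10, SE 0.20, adjusted P = 0.00474) and from NP to LT (-1.22, SE 0.20, adjusted P = 0.000882) under every alternative.

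ADAMTS7 and ADAMTS12 both cut the cartilage oligomeric matrix protein. ADAMTS7 (ENSCPOG00000022491) had 10.5, 11.3 and 15.3 TPM in NP, 5.52, 3.51 and 4.24 in MT and 5.70, 4.14, 3.32 and 2.83 in LT. It fell from NP to MT (-1.30, SE 0.24, adjusted P = 0.00608), with no overlap, and the MT and LT groups overlapped. ADAMTS7 was also lower in LT than in NP (-1.44, adjusted P = 0.000684), and both calls held under every alternative. ADAMTS12 (ENSCPOG00000000432) had 25.3, 13.9 and 15.4 TPM in NP, 19.5, 11.5 and 10.3 in MT and 9.54, 5.83, 3.91 and 3.63 in LT. It fell from MT to LT (-1.16, SE 0.33, adjusted P = 0.0254), a call lost under 7 of 20 alternatives, among them the omission of MT replicate 1 or 2 or of LT replicate 3 or 4, and from NP to LT (-1.55, SE 0.33, adjusted P = 0.00333), a call that was kept.

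ADAMTS17 (ENSCPOG00000009337) had 6.02, 2.47 and 2.18 TPM in NP, 1.26, 0.913 and 0.603 in MT and 1.45, 2.34, 1.89 and 2.17 in LT. NP replicate 1 was the highest, and the groups NP and MT did not overlap. The decrease from NP to MT (-1.16, SE 0.31, adjusted P = 0.0295) was lost with median-ratio scaling, with the replicate number as a block, with only NP and MT fitted and without MT replicate 2 or 3, and without NP replicate 1 the gene no longer reached the level for testing. ADAMTS19, at stage means of 3.46 to 6.10 TPM, passed in no comparison in limma. On the read counts it rose from MT to LT, by 0.79 with edgeR (TMM, adjusted P = 0.0488) and by 0.78 with DESeq2 (adjusted P = 0.0176), and ADAMTS17 rose in that step with DESeq2 (1.26, adjusted P = 0.0178).

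**Figure D3:**
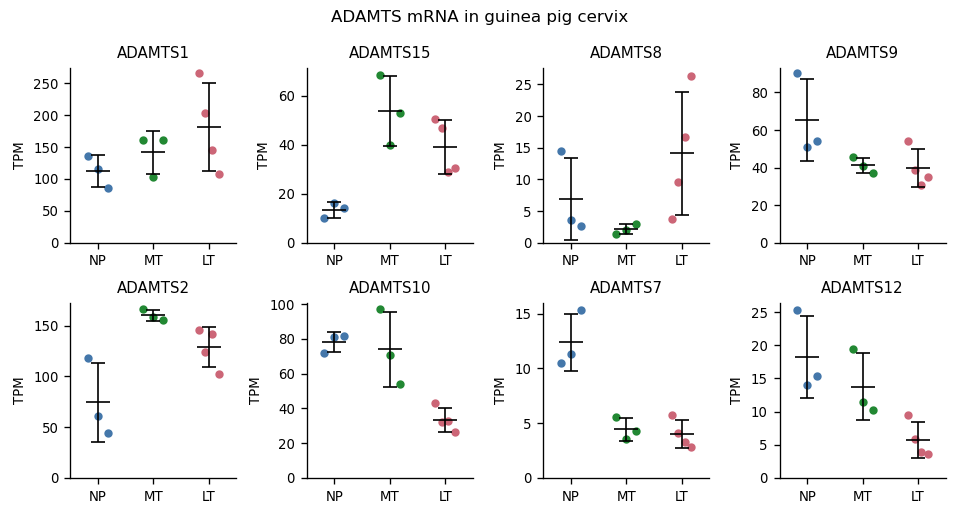
TPM of 8 ADAMTS genes in each animal of NP, MT and LT, each panel with its own linear axis from 0; dots are animals and the black bars show the mean ± SD. ADAMTS15 and ADAMTS2 are lowest in NP, ADAMTS7 is highest in NP, ADAMTS10 and ADAMTS12 are lowest in LT, and ADAMTS8 is spread from 3.81 to 26.4 TPM within LT.

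Of the ADAM genes, 11 of 17 were tested, and 3 rose and 3 fell from NP to MT, 1 rose and 2 fell from MT to LT, and 2 rose and 5 fell from NP to LT. The shares of all tested genes were 6.27% and 12.2%, 6.73% and 22.7%, and 11.2% and 41.9%. ADAM10 and ADAM17, the general sheddases of cell surfaces, changed little in size. ADAM10 (ENSCPOG00000010516), which cuts Notch and cadherins, had 75.1, 78.2 and 73.2 TPM in NP, 59.2, 52.8 and 50.6 in MT and 54.5, 55.0, 52.5 and 54.1 in LT. Its animals were tightly grouped, with every NP animal above every pregnant one, and the decrease to MT passed (-0.47, SE 0.08, adjusted P = 0.0046). The decrease from NP to LT (-0.47, SE 0.08, adjusted P = 0.000786) was lost with median-ratio scaling and with edgeR. ADAM17, which releases tumor necrosis factor, fell from NP to LT by 0.33 on the log2 scale (adjusted P = 0.00885), and this was lost with median-ratio scaling, edgeR and DESeq2.

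ADAM9 (ENSCPOG00000007755) was the most abundant ADAM. It had 107, 81.6 and 86.7 TPM in NP, 130.05, 131 and 131 in MT and 128, 112, 109 and 106 in LT. All MT animals were above all others, and ADAM9 rose from NP to MT (0.52, SE 0.11, adjusted P = 0.0126). Between NP and LT the groups overlapped and the call (0.31, SE 0.10, adjusted P = 0.0303) was lost under 5 of 20 alternatives, each of them with fewer animals.

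ADAM12 (ENSCPOG00000003867), an ADAM of mesenchymal cells that cuts insulin-like growth factor binding proteins, had 4.83, 5.84 and 9.67 TPM in NP, 2.07, 2.57 and 2.88 in MT and 5.02, 4.57, 9.10 and 7.10 in LT. The MT animals were all below the others, and NP and LT overlapped. ADAM12 was the only member called both from NP to MT (-1.11, SE 0.28, adjusted P = 0.022) and from MT to LT (1.05, SE 0.26, adjusted P = 0.0155), first down and then up. The decrease was lost under 5 of 19 alternatives, including the omission of NP replicate 3 or of any 1 MT animal, and the rise under none.

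ADAM19 (ENSCPOG00000007717), which releases neuregulin, had 32.4, 24.9 and 22.4 TPM in NP, 23.0, 33.0 and 26.5 in MT and 16.1, 9.91, 8.31 and 8.30 in LT. ADAM33 (ENSCPOG00000019634), an ADAM of fibroblasts and smooth muscle, had 61.7, 55.1 and 45.9 TPM in NP, 51.1, 37.7 and 20.6 in MT and 12.1, 14.3, 16.5 and 16.8 in LT. For both genes all LT animals were below all others, while NP and MT overlapped. Toward LT, ADAM19 fell (-1.32, SE 0.23, adjusted P = 0.00402) and ADAM33 fell (-1.15, SE 0.26, adjusted P = 0.0106). From NP to LT, ADAM19 fell by 1.27 and ADAM33 fell by 1.797 on the log2 scale (adjusted P = 0.00137 and 0.000495). These 4 calls held under every alternative.

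In the same step from MT to LT the stromal markers PDGFRA (-1.59, SE 0.21, adjusted P = 0.00187) and PDGFRB (-0.56, SE 0.17, adjusted P = 0.0324) and all 3 tested endothelial markers, CDH5, KDR and TEK, were lower. The summed endothelial markers were at 63.6 to 81.4 TPM in NP, 49.8 to 65.4 in MT and 27.4 to 41.2 in LT. The sum of the 5 stromal markers in the table overlapped between stages, at 5934 to 10653, 5207 to 9914 and 6029 to 9059 TPM, with LUM higher in LT than in MT. The sum of the 6 smooth muscle markers was at 7887 to 30340 TPM in NP, 12383 to 18647 in MT and 18708 to 38951 in LT, and none of them passed from MT to LT. The part of these cell types in the decreases of ADAM19, ADAM33, ADAMTS10, ADAMTS12 and TIMP3 was not tested.

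ADAM28 and ADAM7 were the ADAMs that rose most in pregnancy. ADAM28 (ENSCPOG00000009707), an ADAM of lymphocytes and epithelia, had 0.675, 6.82 and 2.49 TPM in NP, 25.9, 15.6 and 20.7 in MT and 15.6, 18.5, 14.7 and 9.45 in LT. Every pregnant animal was above every NP animal (2.58, SE 0.47, adjusted P = 0.0061 to MT, and 2.09, SE 0.44, adjusted P = 0.00326 to LT). ADAM7 (ENSCPOG00000001538), which lacks the active zinc site and is best known from the epididymis, had 0.367, 48.8 and 6.77 TPM in NP, 117, 74.1 and 90.7 in MT and 22.8, 32.9, 19.4 and 12.4 in LT. The NP animals differed widely, all MT animals were above all others, and the rise to MT (3.53, SE 0.99, adjusted P = 0.035) was lost under 13 of 20 alternatives, including edgeR, DESeq2 and the omission of NP replicate 3, of any 1 MT animal or of LT replicate 2 or 3. Its size was 2.25 without NP replicate 1 and 4.84 without NP replicate 2. Between MT and LT the change of -2.11 did not pass (adjusted P = 0.111), although the groups did not overlap, and it passed on square-root TPM (adjusted P = 0.0191), with only MT and LT fitted (adjusted P = 0.00325) and without NP replicate 1 or 2.

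Some markers of secretory epithelium also rose from NP to MT. MUC5B had 9.86, 102 and 115 TPM in NP, 861, 391 and 937 in MT and 407, 378, 281 and 294 in LT, and PIGR had 2.17, 97.5 and 70.2 TPM in NP, 286, 279 and 331 in MT and 313, 293, 266 and 174 in LT. NP replicate 1 was the lowest animal for both markers and for ADAM7 and ADAM28, and the highest for MUC4, at 107 TPM. Of the 4 columnar markers in the table, EPCAM, MUC5B and PIGR rose and MUC4 fell from NP to MT, and their sum was at 388 to 570 TPM in NP, 1048 to 1682 in MT and 879 to 1149 in LT. The 5 markers of T and B cells in the table summed to 3.61 to 30.3 TPM in NP, 5.57 to 17.7 in MT and 2.13 to 7.08 in LT, and none of the 3 that were tested passed. The part of these cells in the changes of ADAM7 and ADAM28 was not tested.

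ADAM22 (ENSCPOG00000010085), a receptor without an active site, had 8.11, 18.1 and 12.4 TPM in NP, 6.31, 7.87 and 6.40 in MT and 4.45, 5.09, 4.25 and 4.28 in LT. No groups overlapped. The decrease from NP to LT passed under every alternative (-1.27, SE 0.22, adjusted P = 0.00117), and that from NP to MT (-0.76, SE 0.23, adjusted P = 0.0481) was lost under 15 of 20, among them the omission of any 1 animal other than NP replicate 1. ADAM8 and ADAM15, at stage means of 27.2 to 46.1 TPM, passed in no comparison, and after median-ratio scaling both were higher in LT than in NP by 0.95 and 0.84 on the log2 scale (adjusted P = 0.0218 and 0.0451). With DESeq2, ADAM8 was also higher in LT than in MT (0.81, adjusted P = 0.0294).

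**Figure D4:**
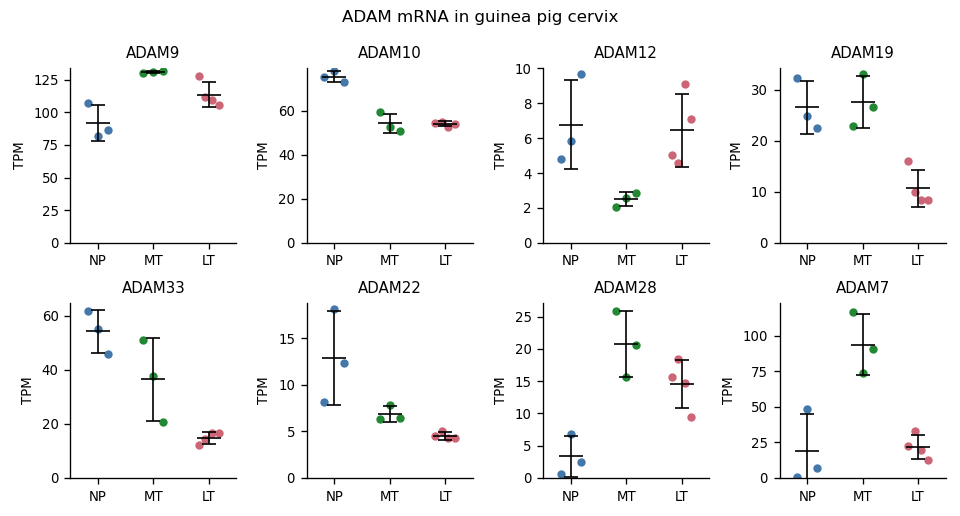
TPM of 8 ADAM genes in each animal of NP, MT and LT, each panel with its own linear axis from 0; dots are animals and the black bars show the mean ± SD. ADAM19, ADAM33 and ADAM22 are lowest in LT, ADAM12 is lowest in MT, and ADAM28 and ADAM7 are lowest in NP replicate 1, at 0.675 and 0.367 TPM.

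Among the inhibitors, TIMP1 and TIMP3 moved in opposite directions from MT to LT. TIMP1 (ENSCPOG00000013119), a secreted inhibitor of most MMPs, had 239.6, 195 and 193 TPM in NP, 226, 158 and 212 in MT and 420.1, 312, 427 and 322 in LT. TIMP3 (ENSCPOG00000007312), which is bound to the matrix and inhibits ADAM17 and proteoglycanases as well, had 295, 332 and 253 TPM in NP, 258, 372 and 360.5 in MT and 192, 167, 168 and 145 in LT. For both genes NP and MT overlapped and no LT animal overlapped them. TIMP1 rose from MT to LT (0.90, SE 0.16, adjusted P = 0.00487) and TIMP3 fell (-0.96, SE 0.15, adjusted P = 0.0033). Relative to NP, TIMP1 was 1.76-fold higher in LT (0.81, SE 0.16, adjusted P = 0.00254) and TIMP3 fell by 0.80 on the log2 scale (SE 0.15, adjusted P = 0.00186). All 4 calls held under every alternative.

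The ratio of TIMP1 to TIMP3 mRNA was 0.811, 0.586 and 0.764 in the NP animals, 0.875, 0.423 and 0.588 in MT and 2.19, 1.87, 2.55 and 2.22 in LT. TIMP3 was thus the more abundant of the pair in all 6 NP and MT animals and TIMP1 in all 4 LT animals. TIMP2_CAVPO (ENSCPOG00000008663), whose product also takes part in the activation of MMP2 by MMP14, was the most abundant inhibitor in every animal. It had 1058, 791 and 729 TPM in NP, 696, 849 and 698 in MT and 758, 684, 817 and 566 in LT, all groups overlapped, and the change from NP to LT was -0.28 (adjusted P = 0.174). TIMP4 (ENSCPOG00000021191), the rarest, had 14.3, 6.49 and 3.12 TPM in NP, 10.7, 11.4 and 8.23 in MT and 6.06, 4.97, 10.05 and 6.77 in LT, and no change passed.

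Of the summed inhibitor mRNA, TIMP2_CAVPO made up 62.5%, 58.0% and 56.4% on average in NP, MT and LT. TIMP1 contributed 15.3%, 15.6% and 29.6%, and TIMP3 contributed 21.7%, 25.5% and 13.5%. The total of all 4 inhibitors was 1370.3 ± 217 TPM in NP, 1287 ± 100.04 in MT and 1252 ± 179 in LT, a difference between stages smaller than the SD of NP.

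Some markers of other cell types rose from MT to LT, the step in which TIMP1, MMP19, ADAM12 and ADAMTS8 rose. Between MT and LT the macrophage markers CD163 (2.14, SE 0.36, adjusted P = 0.00395) and CD14 (1.15, SE 0.26, adjusted P = 0.0107) rose, and 3 other macrophage markers did not pass. The neutrophil markers S100A8 and CSF3R rose and S100A9 did not pass, while MPO and ELANE were at 0.679 TPM or less in every animal. The summed macrophage markers were at 115 to 215 TPM in NP, 106 to 118 in MT and 149.6 to 286 in LT, and the summed neutrophil markers at 4455 to 8227, 8925 to 13287 and 14769 to 19224 TPM. Nearly all of the neutrophil sum was S100A8 and S100A9, while CSF3R was at 1.70 to 27.3 TPM. The 3 tested T and B cell markers did not pass, and the sum of all 5 reached 17.7 TPM in MT and 7.08 TPM in LT. Of the 5 squamous markers, KRT14 rose (2.498, SE 0.64, adjusted P = 0.0184). The part of these cell types in the rise of these members was not tested.

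The balance of MMPs and inhibitors was taken as the ratio of summed TPM in each animal and carries no test. The MMP genes summed to 1297 ± 341 TPM in NP, 870.0 ± 72.7 in MT and 1252 ± 351 in LT (mean ± SD over 3, 3 and 4 animals), of which MMP2 and MMP14 made up 87.1%, 93.6% and 96.0%. Against TIMP1, TIMP3 and TIMP4 the ratio was 1.804, 2.32 and 3.70 in NP, 1.92, 1.56 and 1.40 in MT and 2.68, 2.22, 2.34 and 1.82 in LT. With TIMP2_CAVPO in the sum it was 0.617, 0.933 and 1.41 in NP, 0.799, 0.608 and 0.636 in MT and 1.20, 0.921, 0.994 and 0.831 in LT. The lowest mean was in MT in both versions, NP overlapped both other groups, and with TIMP2_CAVPO no LT animal lay as low as any MT animal. NP replicate 1 had the lowest and NP replicate 3 the highest ratio of the NP animals in both versions, as they did for MMP2 itself.

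Without MMP2, the ratio of the other MMPs to all 4 inhibitors was 0.315, 0.310 and 0.513 in NP, 0.189, 0.180 and 0.190 in MT and 0.211, 0.210, 0.209 and 0.226 in LT. No groups overlapped, and the order was NP, LT and MT. The MMP sum without MMP2 was 507 ± 97.2 TPM, 239 ± 13.0 TPM and 267 ± 31.5 TPM, and most of it was MMP14, the level of which was lowest in MT. The ratio of MMP2 to TIMP2_CAVPO was 0.459, 1.04 and 1.45 in NP, 1.04, 0.701 and 0.817 in MT and 1.799, 1.21, 1.37 and 1.11 in LT. All LT animals were above all MT animals for this ratio, and NP overlapped both.

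The sum of the ADAMTS genes relative to TIMP3 was 1.75, 1.17 and 1.38 in NP, 2.28, 1.21 and 1.39 in MT and 3.15, 2.93, 2.58 and 2.51 in LT. Every LT animal was above every other animal. The ADAMTS sums of the stages overlapped, so that the higher ratio in LT went with the lower level of TIMP3.

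**Figure D5:**
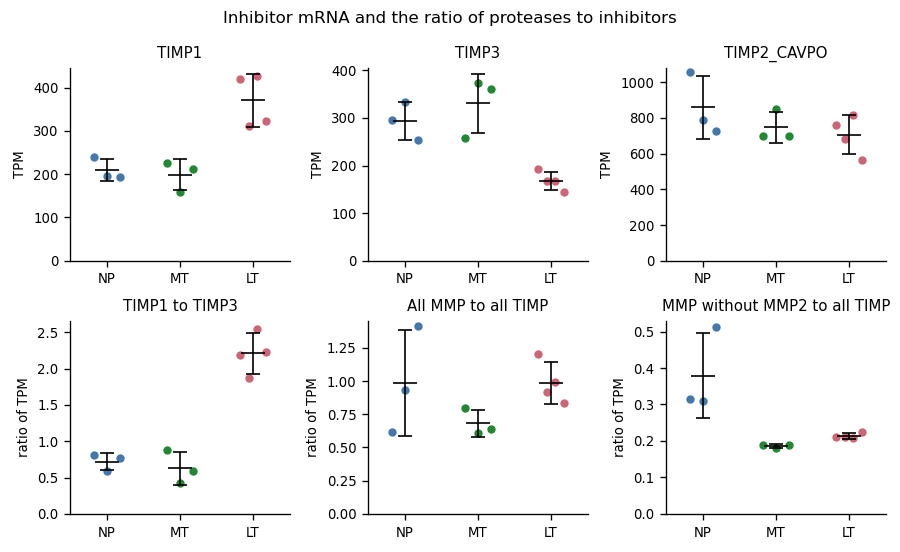
Upper row, TPM of TIMP1, TIMP3 and TIMP2_CAVPO, and lower row, ratios of summed TPM, in each animal of NP, MT and LT, with linear axes from 0; all TIMP means TIMP1, TIMP3, TIMP4 and TIMP2_CAVPO, dots are animals and the black bars show the mean ± SD. The ratio of TIMP1 to TIMP3 lies at 1.87 to 2.55 in LT and below 1 in all NP and MT animals.

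Over all 3 stages, 23 of the 37 tested genes passed an exact permutation test of the one-way F statistic on square-root TPM, adjusted over all genes, where 47.1% of all tested genes did. These were 6 MMP, 7 ADAMTS, 8 ADAM and 2 TIMP genes. The number was 15 without MT replicate 3, 10 without LT replicate 2 or LT replicate 3, and 12 without LT replicate 4, and the share of all tested genes was then, in that order, 34.2%, 23.2%, 22.8% and 23.7%. The smallest P that the 4200 assignments of animals allow is 0.000476, and MMP19, ADAM17 and ADAM22 reached it. The stage mean was highest in NP for 20 of the 37 genes, in MT for 10 and in LT for 7, or 54.1%, 27.0% and 18.9% of them against 58.1%, 21.4% and 20.5% of all tested genes. In all, 26 of the 37 genes were called in at least 1 of the 3 comparisons, where 60.7% of all tested genes were. The 11 that were called in none were MMP2, MMP9, MMP16, MMP24, ADAMTS1, ADAMTS5, ADAMTS14, ADAMTS19, ADAM8, ADAM15 and TIMP4.

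Of 47 genes that act on these enzymes or beside them, 40 were in the table and 35 were tested. From NP to MT 4 of them rose and 6 fell, from MT to LT 3 rose and 2 fell, and from NP to LT 6 rose and 10 fell, beside the shares of all tested genes given above, 6.27% and 12.2%, 6.73% and 22.7%, and 11.2% and 41.9%. RECK, a membrane-anchored inhibitor of MMP2, MMP9 and MMP14, had 52.6, 61.4 and 57.1 TPM in NP, 51.7, 47.1 and 47.8 in MT and 34.1, 22.5, 20.01 and 16.8 in LT. It fell from MT to LT with no overlap (-1.08, SE 0.19, adjusted P = 0.00455), in the same step as TIMP3. THBS2, a thrombospondin that aids the clearance of MMP2, rose in that step (1.27, SE 0.38, adjusted P = 0.0312).

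In the plasminogen system, which activates several pro-MMPs, the urokinase gene PLAU had 30.3, 31.3 and 33.7 TPM in NP and 14.6, 18.4 and 16.5 TPM in MT, and it fell (-0.91, SE 0.16, adjusted P = 0.00533). Its receptor PLAUR also fell in that step (-1.50, SE 0.43, adjusted P = 0.0388), with NP replicate 1 at 99.1 TPM and the other NP animals at 35.3 and 27.2 TPM. SERPINB2, an inhibitor of urokinase, had 21.6, 13.7 and 13.9 TPM in NP, 138, 50.8 and 149.6 in MT and 138, 257, 188 and 472 in LT. Every pregnant animal was above every NP animal (2.59, SE 0.48, adjusted P = 0.00677 to MT). SERPINE2, a further inhibitor of this system, rose from MT to LT (1.09, SE 0.29, adjusted P = 0.0192). Plasminogen itself, PLG, was at 0.249 TPM or less in every animal.

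Among the proprotein convertases, which trim the pro-domains of MMP14, MMP11 and most ADAM and ADAMTS enzymes, PCSK5 rose from NP to MT (1.24, SE 0.33, adjusted P = 0.0296) and PCSK6 from MT to LT (0.73, SE 0.17, adjusted P = 0.0137). FURIN, at 82.8 to 141 TPM, and PCSK7 passed in no comparison. Of the ADAMTS-like proteins, which resemble ADAMTS enzymes without the protease domain, PAPLN (1.44, SE 0.25, adjusted P = 0.00533) and ADAMTSL3 (0.92, SE 0.24, adjusted P = 0.0263) rose from NP to MT.

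Of 7 tested partners of ADAM10 and ADAM17, 3 fell from NP to MT and none rose, where 12.2% of all tested genes fell. RHBDF1, TSPAN14, TSPAN15 and TSPAN17 did not pass in this step. The 3 that fell were TSPAN5 (-0.80, SE 0.17, adjusted P = 0.0107) and TSPAN33 (-1.72, SE 0.25, adjusted P = 0.0023), tetraspanins that guide ADAM10, and RHBDF2 (-0.75, SE 0.14, adjusted P = 0.0061), which carries ADAM17 to the cell surface. ADAM10 itself fell in this step, as given above, and the change of ADAM17 was -0.15 (adjusted P = 0.269). BMP1, the protease that removes the other end of procollagen from that cut by ADAMTS2, fell from NP to MT (-0.998, SE 0.26, adjusted P = 0.0263), the step in which ADAMTS2 rose.

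The 15 members that were not tested stayed under a mean of 3 TPM in every stage. ADAMTS6, MMP25 and MMP8 had their highest stage mean between 1 and 3 TPM. ADAM11, ADAM23, ADAM32, ADAMTS16, ADAMTS18 and ADAMTS20 lay between 0.1 and 1 TPM, and ADAM18, ADAMTS13, MMP1 and MMP21 lay below that with at least 1 read. ADAM21 and ADAM29 had no read in any animal.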

How the data were processed

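RNA of 10 guinea pig cervices, 1 per animal, was sequenced as strand-specific single reads of 75 bases. The authors aligned the reads with TopHat2 to the guinea pig genome (cavPor3.69), counted them per Ensembl gene with HTSeq-count (HTSeq 0.5.4p1, and CASAVA 1.8.2 upstream, per the submitters' processing notes) and deposited read counts and TPM values in 1 table. The strand setting of the counting is not given in the sources used here, and antisense partners were not examined. Reads on genes numbered 18730665 to 27881572 per animal, and correlations between libraries 0.962 to 0.996 on log2(TPM + 1).

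Here limma (trend) was fitted to log2 of the deposited TPM plus a pseudocount of 1, in 1 fit over all 10 animals with stage as the only term. A gene entered when any stage mean reached 3 TPM, which 12645 genes did, with two-sided P-values adjusted by Benjamini-Hochberg over all of them. An exact permutation test of the one-way F statistic on square-root TPM, the scale of the study, was run on the same genes. Sums and ratios over members carry no test. Named with values in every animal are all TIMP genes, the 4 MMP, 4 ADAMTS and 4 ADAM genes of highest mean, and every member with an adjusted P under 0.05 and a log2 fold change of at least 1 in size. The members, lists and tests were chosen with earlier results of these data known. The alternatives were square-root TPM, a pseudocount of 0.1, no filter and a filter of 10 TPM, median-ratio scaling, edgeR (TMM and RLE) and DESeq2 on the deposited counts, fits of 2 stages, a replicate block and the omission of each animal, and the code was tested on simulated data. The ratio with TIMP2_CAVPO was added after the values were seen. The tools were limma 3.58.1, DESeq2 1.42.0 and edgeR 4.0.16 under R 4.3.3. No coordinates were used, and MMP23B and ADAM2_CAVPO, whose names do not end in the number, were left out with TIMP2_CAVPO.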

Additional observations from a re-analysis of the deposited data

Results flagged for a closer look

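In LT, the ADAM17 level of LT replicate 4 was 22.0 TPM, while the other LT animals lay between 24.8 and 25.1 TPM. Its gap to the nearest of them was 0.887 of the range of the group, above Dixon's critical value for 4 samples. Of 39 quantities examined in LT it was the only one past this value, where chance marks about 1 in 20.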

How the results depend on the processing

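Of 45 calls for the members, 28 held under every alternative that could give a value, and of 891 alternative values 799 kept their side of the threshold, 92 lost it and 0 changed direction. The number of members called from NP to MT was 9 with a filter of 10 TPM, which leaves fewer genes, and 8 with only the animals of the compared stages, when 18.4% and 8.78% of all tested genes were called in place of 18.5%. From MT to LT it was 15 with DESeq2, 9 higher and 6 lower, and the share of all genes was 36.2% in place of 29.4%. With 1 animal left out at a time, it ranged from 8 to 15 from NP to MT, from 7 to 11 from MT to LT and from 19 to 23 from NP to LT, and for the exact F test from 10 to 22, where fewer animals allow fewer assignments. The MMP to TIMP ratio in NP, MT and LT was 1.01, 0.445 and 0.491 without MMP2, 7.69, 4.95 and 6.98 from summed read counts, which are not per length, and 0.987, 0.681 and 0.987 with TIMP2_CAVPO. With 1 animal left out it ranged from 2.06 to 3.01, 1.48 to 1.74 and 2.13 to 2.41. The replicate numbers did not pair the animals, with correlations of same-numbered animals from -0.287 to 0.254, and a replicate block gave 12, 8 and 23 calls in place of 14, 9 and 22, and 12.5%, 13.4% and 43.1% of all genes in place of 18.5%, 29.4% and 53.1%. The precision of genes near 3 TPM is limited by 55 to 104.5 reads.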

Other observations

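Without the filter on low levels, 3 members under 3 TPM passed the test, and they were chosen for mention after their values were seen. ADAMTS6 was lower in MT than in NP (log2 fold change -0.78, limma adjusted P = 0.0126), and lower in LT than in NP, with -0.76 (adjusted P = 0.00317), at stage means of 2.48, 1.00 and 1.03 TPM. ADAMTS16 was lower in LT than in NP, with -0.53 (adjusted P = 0.0379), and ADAMTS20 was lower in LT than in MT, with -0.44 (adjusted P = 0.0321). Without NP replicate 1, TIMP4 was higher in MT than in NP, with 0.99 (adjusted P = 0.038), ADAMTS14 was lower in MT and in LT than in NP, with -0.79 and -0.78 (adjusted P = 0.0266 and 0.0112), and ADAMTS8 was higher in LT than in NP, with 1.61 (adjusted P = 0.0369). With all animals these changes did not pass.

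MMP23B, which is outside the choice of members by its name, was at 28.0 to 33.0 TPM in NP, 20.2 to 34.8 in MT and 23.2 to 34.2 in LT, and passed in no comparison (adjusted P = 0.437, 0.359 and 0.982).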
